A study of Mus musculus with 12 samples.

Results

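Nox4 and 9 genes that surround it in the handling of reactive oxygen were followed in RNA-seq of primary mouse cardiac fibroblasts. The 10 genes were picked by name and not by a measured value, though with earlier results of these data known. They are the NADPH oxidase genes Nox4 and Cyba, the superoxide dismutases Sod1, Sod2 and Sod3, the peroxide-removing enzymes Cat, Gpx1 and Gpx3, and the stress-induced enzymes Hmox1 and Nqo1. They make up 10 of the 18028 genes tested, and all 10 passed the minimum of 10 counts over the 12 libraries. The fibroblasts came from the hearts of adult wild type C57BL/6J mice of both sexes, were kept in low serum for 24 h, and formed 4 groups of 3 biological replicates. They carried either a scramble siRNA or an siRNA against the linker histone H1.0, and received either vehicle or TGF-β at 10 ng/ml. Every group was thus transfected, so no untransfected cells serve as a reference, and the siRNA acts on a mixed primary culture and not on a clone. The sources do not say which libraries came from which isolation, so p-values measure the spread between these libraries. The question addressed here is how the oxidase and the enzymes that clear its products respond to TGF-β, and whether knockdown of H1.0 alters that response.

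NOX4 is a membrane oxidase that passes electrons from NADPH to oxygen and releases mainly hydrogen peroxide. It needs the p22phox subunit, the product of Cyba, but not the cytosolic organizer subunits that phagocyte oxidase requires, so its activity follows its abundance. TGF-β is a well known inducer of NOX4 in fibroblasts, where NOX4 is associated with the change to contractile myofibroblasts. Superoxide dismutases turn superoxide into hydrogen peroxide, and catalase and the glutathione peroxidases remove that peroxide. Heme oxygenase and NQO1 are classic targets of NRF2, the transcription factor that answers to oxidants.

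Promoter windows, from 250 bases before to 50 after the start, are shown for Nox4, Cyba, Cat and Gpx3, the genes whose counts changed in the comparisons that follow. The sequences are RefSeq's on GRCm38.p6 and run in the direction of transcription, and capitals mark matches to the motifs searched. The starts are RefSeq's as well and differ from the ends of the gene spans given below. The windows of Nox4, of Gpx3 and, of those not shown, of Sod2 lie wholly inside those spans.
Nox4, chr7:87246399-87246698, plus strand: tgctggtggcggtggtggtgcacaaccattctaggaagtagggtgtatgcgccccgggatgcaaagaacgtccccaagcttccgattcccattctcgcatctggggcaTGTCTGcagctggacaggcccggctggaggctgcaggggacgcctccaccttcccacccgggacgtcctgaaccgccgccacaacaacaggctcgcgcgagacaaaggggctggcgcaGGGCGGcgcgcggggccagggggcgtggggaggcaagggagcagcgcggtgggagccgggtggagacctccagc
Cyba, chr8:122432891-122433190, minus strand: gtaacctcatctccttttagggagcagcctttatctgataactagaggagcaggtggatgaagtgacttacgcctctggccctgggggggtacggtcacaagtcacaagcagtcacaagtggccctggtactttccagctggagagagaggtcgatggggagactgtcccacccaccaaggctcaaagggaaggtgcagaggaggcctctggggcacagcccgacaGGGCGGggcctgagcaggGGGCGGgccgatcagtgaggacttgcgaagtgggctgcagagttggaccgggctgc
Cat, chr2:103485104-103485403, minus strand: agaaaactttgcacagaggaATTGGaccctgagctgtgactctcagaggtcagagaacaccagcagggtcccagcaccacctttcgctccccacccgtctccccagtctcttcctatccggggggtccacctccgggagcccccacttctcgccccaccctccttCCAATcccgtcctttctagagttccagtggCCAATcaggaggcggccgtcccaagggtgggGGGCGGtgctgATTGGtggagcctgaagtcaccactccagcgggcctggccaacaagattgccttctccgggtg
Gpx3, chr11:54902604-54902903, plus strand: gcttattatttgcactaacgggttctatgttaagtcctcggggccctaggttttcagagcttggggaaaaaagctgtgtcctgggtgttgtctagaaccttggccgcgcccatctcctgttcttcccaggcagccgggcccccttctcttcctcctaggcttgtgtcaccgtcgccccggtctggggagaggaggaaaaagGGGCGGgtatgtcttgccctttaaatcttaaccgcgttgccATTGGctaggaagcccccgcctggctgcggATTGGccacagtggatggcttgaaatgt

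RefSeq held such a window for 8 of the 10 genes, all but Sod3 and Hmox1. Each of the 8 had a GC box (GGGCGG) on either strand, against 35.7% of 32851 windows in all. All but the Gpx1 window, at 47% GC, were above the median of 52.7% GC over all windows, with Nox4 highest at 68.3%. The part of GC content in these matches was not tested. A CCAAT box (CCAAT) stood in 4 of the 8 windows, those of Cat, Sod1, Sod2 and Gpx3, against 37.4% of all windows. The Cat window held 4 such matches. A TATA box (TATAAA) was found for Sod1 and Nqo1, against 13.6% of all. Only the Nox4 window among the 8 held a CAGA box (CAGACA), the core that SMAD proteins recognize, and 21% of all windows did. The antioxidant response element (TGACNNNGC) matched in the Sod1 window and in 12.4% of all. AP-1 (TGANTCA), FOXO (TGTTTAC) and E-box (CACGTG) letters matched in 0 of the 8 windows, against 7.81%, 3.65% and 7.15% of all. These matches describe letters in a short window, and the matches in the 4 sequences shown do not overlap one another.

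Library totals ran from 19.9 M to 36.3 M estimated counts, and the highest were those of H1.0 siRNA vehicle replicate 3 and of the 3 H1.0 siRNA TGF-β libraries. H1f0, which encodes H1.0, fell from 2732 ± 269 normalized counts in scramble vehicle to 885 ± 251 in H1.0 siRNA vehicle (SD, n = 3), a log2 fold change of -1.63 ± 0.22 (SE, adjusted p = 2.0e-04). With TGF-β present the fall was -1.94 ± 0.22 (adjusted p = 5.8e-05). The myofibroblast genes Postn and Acta2 rose with TGF-β in scramble cells by 2.22 ± 0.19 and 1.75 ± 0.13 on the log2 scale (adjusted p = 3.9e-05 and 2.1e-05). The 10 fibroblast markers summed to between 33800 and 36980 CPM in scramble vehicle and between 30880 and 33780 in scramble TGF-β. In H1.0 siRNA cells they summed to between 41730 and 43350 CPM with vehicle and between 34270 and 38370 with TGF-β. The 7 cardiomyocyte markers summed to between 64.4 and 97.5 CPM in the scramble libraries and to between 6.75 and 12.3 in the H1.0 siRNA libraries, and the part of such cells in the siRNA results was not tested. The endothelial list summed to between 50.6 and 126 CPM and the neutrophil list had S100a9 and Ly6g at 0. The libraries numbered 3 stood apart for Sod3, which was lowest in that library of each of the 4 groups. Some results, those of Sod3 among them, are given with and without these libraries. Here and throughout, normalized counts are counts scaled by TMM to the mean library total, and a gene is called changed at an adjusted p under 0.01 by edgeR's quasi-likelihood test with Benjamini-Hochberg adjustment over all 18028 genes. The scramble vehicle libraries serve as reference both for TGF-β and for the siRNA, so those comparisons are not independent of each other.

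TGF-β raised Nox4 and lowered Cyba, Cat and Gpx3 in scramble cells. Thus 4 of the 10 genes were called, 1 higher and 3 lower, where 18.4% of all genes tested were called. In H1.0 siRNA cells TGF-β raised Nox4 and lowered Cyba and Cat, 3 of the 10, where 15.7% of all genes were called. The H1.0 siRNA, given with vehicle, lowered Nox4 and Gpx3 and raised Cyba and Cat, 4 of the 10, where 24.7% of all genes were called. With TGF-β present it raised Cyba and Cat and lowered Gpx3, 3 of the 10, a share near the 24.3% of all genes called. The interaction, the log2 fold change with TGF-β in H1.0 siRNA cells minus the one in scramble cells, was called for 0 of the 10 genes and for 0.0444% of all genes. At an unadjusted p under 0.05 the interaction held for 3 of the 10, Nox4, Cat and Gpx3, and for 2149 of all 18028 genes. DESeq2 called it for Nox4 alone of the 10. The median log2 fold change of the 10 genes was -0.35 with TGF-β in scramble cells and 0.25 with the siRNA in vehicle, beside medians of -0.01 and 0.00 over all genes.

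**Figure D1:**
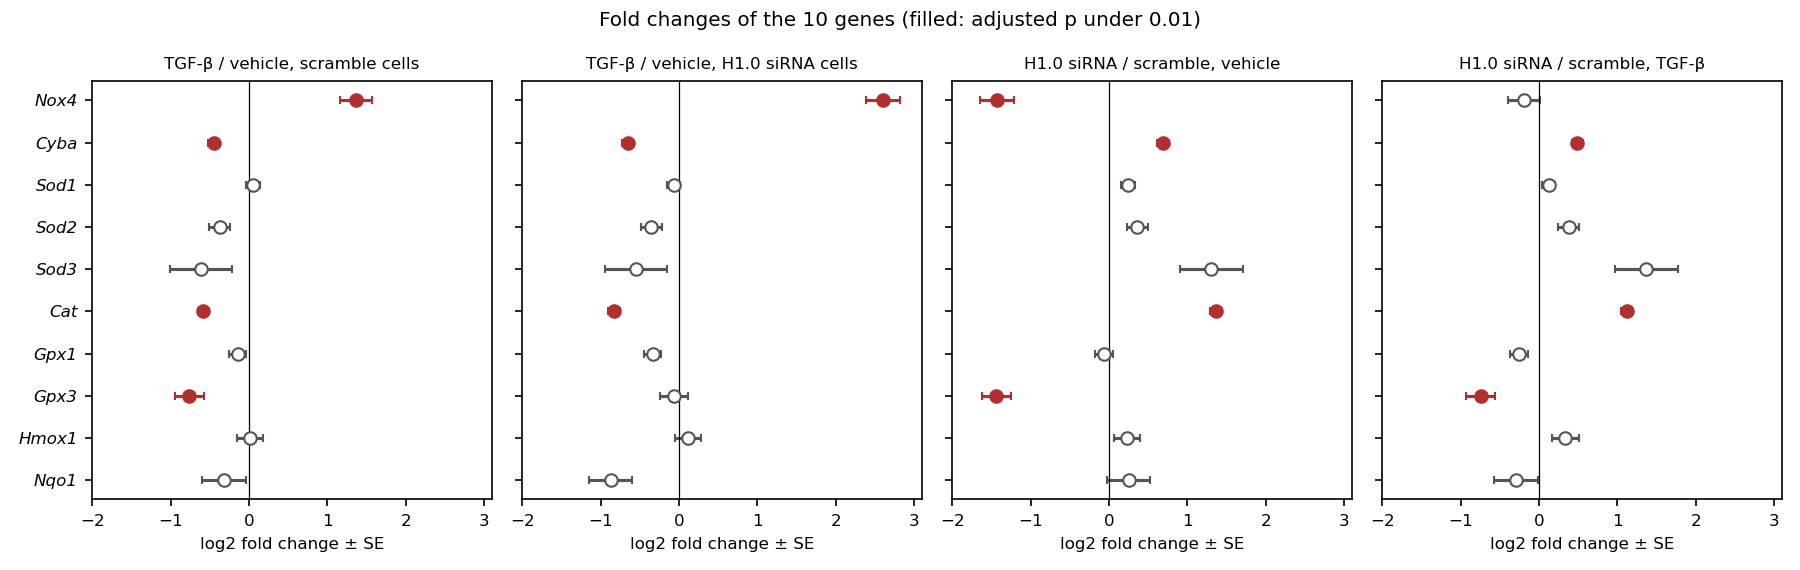
Log2 fold change with its standard error (horizontal axis) of each of the 10 genes (vertical axis) in the 4 comparisons, with filled red points for an adjusted p under 0.01. Nox4 lies to the right with TGF-β in both siRNA backgrounds and to the left with H1.0 siRNA in vehicle, opposite to Cyba and Cat in each of these comparisons.

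Nox4 (ENSMUSG00000030562; plus strand of chromosome 7, 87246096 to 87398710, GRCm38) stood at 905, 924 and 728 normalized counts in the 3 scramble vehicle libraries and at 1969.6, 2136 and 2489.8 in the scramble TGF-β libraries. The groups did not overlap, and the means differed 2.58-fold. The log2 fold change was 1.37 ± 0.21 (SE, adjusted p = 7.1e-04). In H1.0 siRNA cells Nox4 stood at 291, 388 and 276 normalized counts with vehicle and at 1541, 1589.7 and 2643 with TGF-β. All 3 TGF-β libraries were above all 3 vehicle libraries, by 6.06-fold between means, and the log2 fold change was 2.60 ± 0.22 (adjusted p = 2.3e-05).

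The H1.0 siRNA lowered Nox4 where TGF-β was absent. With vehicle its mean was 62.8% below that of scramble cells, with no overlap between the groups (log2 fold change -1.43 ± 0.22, adjusted p = 3.8e-04). With TGF-β the siRNA libraries stood on both sides of the scramble libraries, 2 below all 3 and 1 above all 3. The log2 fold change there was -0.19 ± 0.20 (adjusted p = 0.51). The highest of them, H1.0 siRNA TGF-β replicate 3, stood far above the other two, and without it the fold change was -0.49 ± 0.15 (adjusted p = 0.030), still short of the threshold, and over all alternatives the adjusted p lay between 0.019 and 0.88. The interaction for Nox4 was 1.23 ± 0.29 on the log2 scale, with an unadjusted p of 0.0014 and an adjusted p of 0.11. With DESeq2 it was 1.22 (adjusted p = 0.0077), the lowest adjusted p of the alternatives, which reached 0.27. Without H1.0 siRNA TGF-β replicate 3 it was 0.94. The calls of Nox4 with TGF-β in either background and with the siRNA in vehicle held under every alternative run. The 5 smooth muscle and pericyte markers, led by Rgs5, had their highest sum in scramble TGF-β and their lowest in H1.0 siRNA vehicle, the groups where the mean of Nox4 was highest and lowest. They summed to between 25.1 and 86.6 CPM in scramble vehicle, 78.4 and 188 in scramble TGF-β, 7.67 and 22.4 in H1.0 siRNA vehicle, and 28.9 and 66.6 in H1.0 siRNA TGF-β. With TGF-β 1 of the 5, Cspg4, was called higher in both backgrounds and is named after its values were seen. That was 20%, near the 18.4% and 15.7% of all genes called in scramble and H1.0 siRNA cells. With the siRNA edgeR called 0 of the 5 in either medium, where 24.7% and 24.3% of all genes were called. At an unadjusted p under 0.05 stood 4 and 2 of the 5. At that unadjusted p stood 8012 of all 18028 genes in vehicle and 7898 in TGF-β. The part of smooth muscle cells and pericytes in the Nox4 result was not tested.

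Salmon divided the Nox4 counts mainly between the protein-coding transcript ENSMUST00000032781 and ENSMUST00000126887, which the annotation marks for nonsense-mediated decay. The first held 53.7% of the gene's counts in scramble vehicle, 63.4% in scramble TGF-β, 60.5% in H1.0 siRNA vehicle and 56.8% in H1.0 siRNA TGF-β. The second held 38.9%, 33.2%, 26.5% and 36.8% in the same order. A shorter transcript annotated as non-coding, ENSMUST00000124269, held 10.2% in H1.0 siRNA vehicle and between 1.26% and 4.31% in the other groups. Salmon estimates how reads that transcripts share are divided, so these shares are estimates and not direct counts.

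Cyba (ENSMUSG00000006519; minus strand of chromosome 8, 122424776 to 122432930) moved against Nox4. It lies within the span of Gm20388 on the opposite strand, and whether the counting used strand is not given in the sources used here. It stood at 1262, 1133 and 1170.5 normalized counts in scramble vehicle and at 901, 816 and 889.7 in scramble TGF-β. The groups did not overlap, and the mean was 26.9% lower (log2 fold change -0.45 ± 0.07, adjusted p = 9.3e-04). In H1.0 siRNA cells it stood at 1992, 1922 and 1836 normalized counts with vehicle and at 1285, 1246 and 1125 with TGF-β. That is a mean 36.4% lower (log2 fold change -0.65 ± 0.07, adjusted p = 9.9e-05).

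With the siRNA, Cyba rose 1.61-fold in vehicle (log2 fold change 0.69 ± 0.07, adjusted p = 3.1e-05) and also rose in TGF-β (0.49 ± 0.07, adjusted p = 3.2e-04), with no overlap between groups in either. These calls of Cyba held under every alternative run. The interaction was -0.20 ± 0.10 (adjusted p = 0.47).

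Since Cyba also serves the phagocyte oxidase, the level of macrophage RNA stands beside it. The 13 macrophage markers, led by Lyz2, summed to between 1026 and 1128 CPM in scramble vehicle, 736 and 802 in scramble TGF-β, 961 and 1020 in H1.0 siRNA vehicle, and 496 and 752 in H1.0 siRNA TGF-β. With TGF-β, 3 of the 13 fell in scramble cells and 5 in H1.0 siRNA cells, where 18.4% and 15.7% of all genes were called. With the siRNA in vehicle 2 rose and 2 fell, where 24.7% of all genes were called. The sum was lower in those siRNA libraries, and the median log2 fold change of the 13 was 0.09. With the siRNA in TGF-β 0 rose and 3 fell, where 24.3% of all genes were called, and the median was -0.09. The part of macrophage RNA in the Cyba results with TGF-β and with the siRNA was not tested. In such mixed RNA fewer cells of a type and less RNA per cell cannot be told apart.

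In TPM, which allows levels to be compared between genes per length, Nox4 was far scarcer than its partner subunit. The Nox4 level was 19.2 ± 2.7 TPM in scramble vehicle, 44.0 ± 4.6 in scramble TGF-β, 7.86 ± 1.87 in H1.0 siRNA vehicle and 37.9 ± 11.7 in H1.0 siRNA TGF-β (SD, n = 3). The Cyba level was 154 ± 10, 109 ± 3, 241 ± 18 and 144 ± 13 TPM in the same order. As a share of the Cyba level, Nox4 was 12.5% ± 1.8 in scramble vehicle, 40.3% ± 4.5 in scramble TGF-β, 3.25% ± 0.70 in H1.0 siRNA vehicle and 27.1% ± 11.2 in H1.0 siRNA TGF-β.

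**Figure D2:**
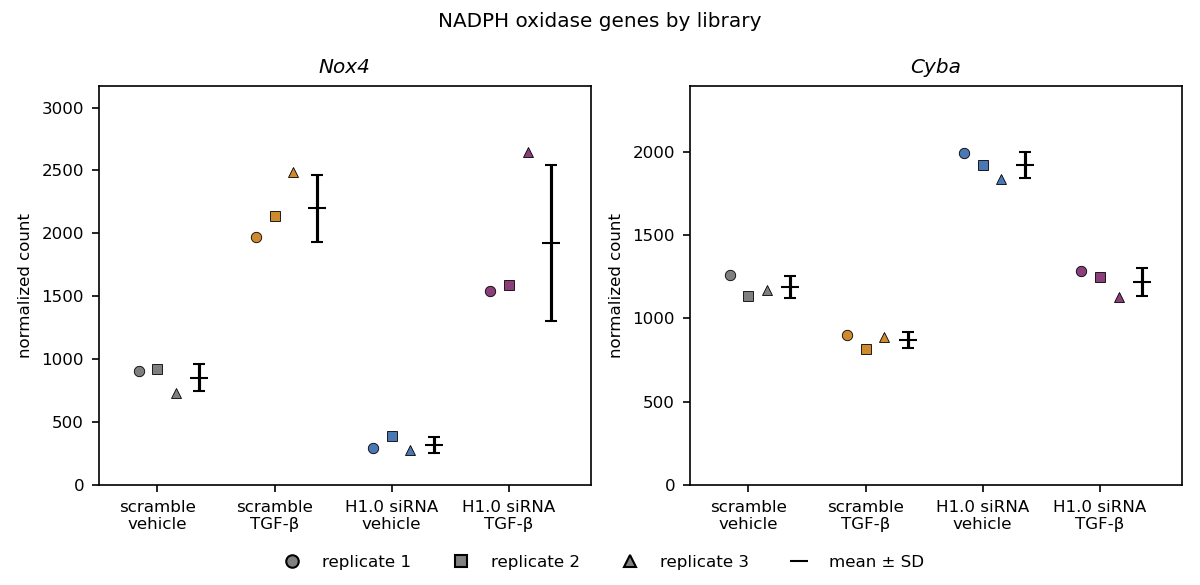
Normalized counts of Nox4 and Cyba (vertical axes, starting at 0) in each library of the 4 groups, with one marker shape per replicate number and the mean with its SD beside each group. Nox4 rises from vehicle to TGF-β in both backgrounds and Cyba falls, and H1.0 siRNA TGF-β replicate 3 stands above the other Nox4 values of its group.

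Cat, the peroxisomal enzyme catalase (ENSMUSG00000027187; minus strand of chromosome 2, 103453849 to 103485160), changed in all 4 comparisons. It stood at 2445, 2500.5 and 2422 normalized counts in scramble vehicle and at 1634.5, 1688 and 1601 in scramble TGF-β. The groups did not overlap, and the mean fell by 33.2% with TGF-β (log2 fold change -0.58 ± 0.07, adjusted p = 2.6e-04). In H1.0 siRNA cells it stood at 5959, 5964 and 7002 normalized counts with vehicle and at 3798, 3357.5 and 3518 with TGF-β, a mean 43.6% lower (log2 fold change -0.83 ± 0.07, adjusted p = 3.0e-05).

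The siRNA raised Cat 2.57-fold in vehicle (log2 fold change 1.36 ± 0.07, adjusted p = 5.5e-07) and 2.17-fold in TGF-β (1.12 ± 0.07, adjusted p = 1.9e-06). Every siRNA library, with or without TGF-β, was above every scramble library. These calls of Cat held under every alternative run. The interaction was -0.24 ± 0.10 (adjusted p = 0.38).

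Gpx3, the secreted glutathione peroxidase (ENSMUSG00000018339; plus strand of chromosome 11, 54902453 to 54910377), went the other way from Cat with the siRNA. It stood at 6173, 4489.7 and 4232 normalized counts in scramble vehicle and at 1468, 1716 and 2303 in H1.0 siRNA vehicle. The groups did not overlap, and the mean was 63.1% lower (log2 fold change -1.44 ± 0.19, adjusted p = 1.3e-04), a call that held under every alternative run. With TGF-β it stood at 3098.5, 2791 and 2903 normalized counts in scramble cells and at 1429.9, 1959.9 and 1867 in H1.0 siRNA cells (log2 fold change -0.74 ± 0.18, adjusted p = 0.0081).

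TGF-β lowered Gpx3 by 0.76 ± 0.18 on the log2 scale in scramble cells (adjusted p = 0.0088), with no overlap between groups. The vehicle and TGF-β values of Gpx3 overlapped in H1.0 siRNA cells, with a log2 fold change of -0.06 ± 0.18 (adjusted p = 0.84). The difference between these effects was 0.70 ± 0.26 (adjusted p = 0.31). The TGF-β call in scramble cells was lost when any one of 8 libraries was left out, each scramble library but vehicle replicate 3, H1.0 siRNA vehicle replicate 2, and H1.0 siRNA TGF-β replicates 2 and 3, with adjusted p from 0.010 to 0.040, and with an offset for transcript length (adjusted p = 0.010). The siRNA call in TGF-β was likewise lost without any one of the 3 scramble TGF-β or the 3 H1.0 siRNA TGF-β libraries, scramble vehicle replicate 2, or H1.0 siRNA vehicle replicate 2, with adjusted p from 0.011 to 0.036.

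Gpx1, the main glutathione peroxidase inside cells, was not called in any of the 4 comparisons between groups (ENSMUSG00000063856; plus strand of chromosome 9, 108338903 to 108340343). It stood at 2554, 2706.5 and 2241 normalized counts in scramble vehicle, at 2292, 2400.5 and 2089 in scramble TGF-β, at 2428, 2509.5 and 2230.2 in H1.0 siRNA vehicle, and at 2002, 2118 and 1554 in H1.0 siRNA TGF-β. The first 3 groups overlapped, and the H1.0 siRNA TGF-β libraries included the lowest value. Its lowest adjusted p was 0.045, for TGF-β in H1.0 siRNA cells, where the mean was 20.8% lower and the groups did not overlap. With libraries left out in turn, the log2 fold change of Gpx1 there ran from -0.425 to -0.213. The weaker value came without H1.0 siRNA TGF-β replicate 3.

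Sod3, the dismutase that is secreted and held at the cell surface and matrix (ENSMUSG00000072941; plus strand of chromosome 5, 52363791 to 52371418), differed widely between replicates. It stood at 8211, 8418 and 5953 normalized counts in scramble vehicle and at 21525, 20473 and 13746 in H1.0 siRNA vehicle. These groups did not overlap, and the means differed 2.47-fold. The log2 fold change was 1.30 ± 0.40 (adjusted p = 0.024), short of the threshold. With TGF-β it stood at 6815, 5428 and 2482 in scramble cells and at 16142, 15760 and 6081 in H1.0 siRNA cells. Those groups overlapped through replicate 3 (log2 fold change 1.37 ± 0.40, adjusted p = 0.0199).

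Without the 4 libraries numbered 3, a choice made after seeing these values, the log2 fold changes of Sod3 with the siRNA were 1.34 in vehicle and 1.37 in TGF-β (adjusted p = 4.5e-05 and 3.9e-05). Both passed the threshold with DESeq2 as well (adjusted p = 0.0021 and 0.0015). Without H1.0 siRNA TGF-β replicate 3 alone they were 1.30 and 1.70 (adjusted p = 0.0073 and 0.0032). The TGF-β effect on Sod3 was -0.62 ± 0.40 in scramble cells and -0.55 ± 0.39 in H1.0 siRNA cells (adjusted p = 0.27 and 0.34). In scramble cells it was -0.44 without the libraries numbered 3, with an adjusted p of 0.0097.

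Sod1, the cytosolic copper and zinc dismutase, had the narrowest range of the set (ENSMUSG00000022982; plus strand of chromosome 16, 90220754 to 90226329). It stood at 3132, 3158 and 3306 normalized counts in scramble vehicle, at 3375, 3235 and 3334 in scramble TGF-β, at 3673, 3445 and 4226 in H1.0 siRNA vehicle, and at 3327, 3532 and 3963.5 in H1.0 siRNA TGF-β. The siRNA vehicle values lay above the scramble vehicle values without overlap, and the other 3 pairs of groups overlapped. The log2 fold changes were 0.05 ± 0.08 with TGF-β in scramble cells and 0.24 ± 0.08 with the siRNA in vehicle (adjusted p = 0.69 and 0.041). Sod1 overlaps Scaf4 on the opposite strand, with the same limit as for Cyba.

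Sod2, the mitochondrial manganese dismutase (ENSMUSG00000006818; plus strand of chromosome 17, 13006846 to 13040063), stood at 2381, 2862 and 2707 normalized counts in scramble vehicle and at 2356.5, 2152 and 1641 in scramble TGF-β. After H1.0 siRNA it stood at 3564, 3338 and 3304 normalized counts with vehicle and at 2821, 2930.2 and 2247 with TGF-β. The groups were apart in 3 of the 4 comparisons and overlapped with the siRNA in TGF-β, and none of the 4 passed the threshold. Its mean was 22.6% lower with TGF-β in scramble cells and 21.6% lower in H1.0 siRNA cells (adjusted p = 0.056 and 0.071). With the siRNA it was 1.28-fold higher in vehicle and 1.30-fold higher in TGF-β (adjusted p = 0.055 and 0.046). Without the libraries numbered 3 the siRNA effect on Sod2 in vehicle was 0.40 on the log2 scale (adjusted p = 0.0099), past the threshold. Of the Sod2 counts, 45.4% lay on the protein-coding transcript ENSMUST00000007012 and 43.2% on ENSMUST00000233897, annotated as non-coding.

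Hmox1, which degrades heme, and Nqo1, which reduces quinones, were not called in any of the 4 comparisons. Hmox1 (ENSMUSG00000005413; plus strand of chromosome 8, 75093621 to 75100589) stood at 2311, 2564 and 3355 normalized counts in scramble vehicle, at 2673, 2771 and 2861 in scramble TGF-β, at 2902, 2618 and 4133.5 in H1.0 siRNA vehicle, and at 3469.5, 3156 and 3855 in H1.0 siRNA TGF-β. The highest value of both vehicle groups was that of replicate 3, and only with the siRNA in TGF-β were the groups apart. The log2 fold changes of Hmox1 ran from 0.01 ± 0.17 with TGF-β in scramble cells to 0.34 ± 0.17 with the siRNA in TGF-β (adjusted p = 0.97 and 0.15). Nqo1 (ENSMUSG00000003849; minus strand of chromosome 8, 107388225 to 107403206) was the scarcest of the antioxidant genes. It stood at 125, 94.3 and 185 normalized counts in scramble vehicle, at 94.1, 120 and 110.1 in scramble TGF-β, at 124, 135 and 221 in H1.0 siRNA vehicle, and at 76.0, 81.0 and 106 in H1.0 siRNA TGF-β. The last group lay below the siRNA vehicle group without overlap (log2 fold change -0.87 ± 0.28, adjusted p = 0.035). Without H1.0 siRNA vehicle replicate 3 that log2 fold change was -0.549.

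**Figure D3:**
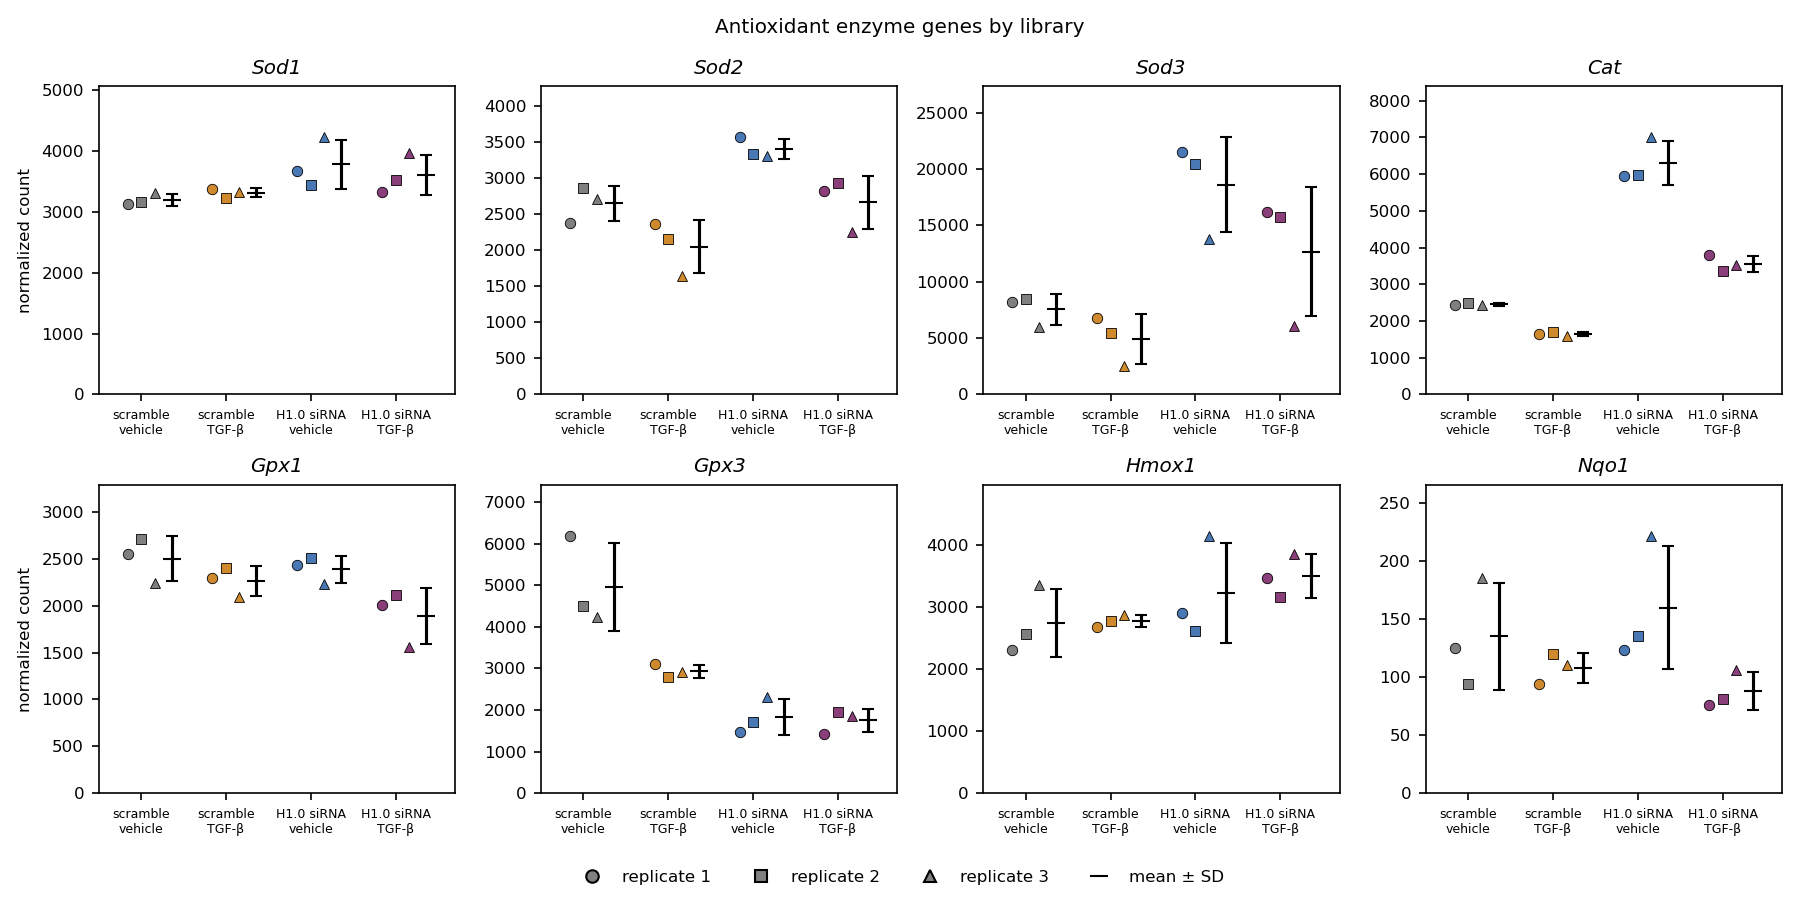
Normalized counts of the 8 antioxidant enzyme genes (vertical axes, each starting at 0) in each library of the 4 groups, with one marker shape per replicate number and the mean with its SD beside each group. Cat is highest in the H1.0 siRNA vehicle libraries, Gpx3 is highest in the scramble vehicle libraries, and Sod3 is lowest in the library numbered 3 of each group.

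By level per length, Sod1 led the set in all 4 groups, at 480 ± 13 TPM in scramble vehicle and 549 ± 40 in H1.0 siRNA vehicle, while Nox4 and Nqo1 were the last of the 10 in each group. In scramble vehicle Gpx1 at 257.5 ± 25.9 TPM and Gpx3 at 252 ± 57 came next and did not differ beyond their spread. Cyba, Sod3, Hmox1 and Sod2 followed between 137 and 154 TPM. Each of these neighbours overlapped the next, but the Cyba libraries (146.5 to 165.7 TPM) all lay above the Sod2 libraries (129.5 to 141.4), and Cat stood at 72.1 ± 1.5. In H1.0 siRNA vehicle Sod3 at 364 ± 93 TPM came after Sod1, and Cat at 179.5 ± 10.5 was level with Sod2 at 179 ± 13. Gpx3, at 89.7 ± 17.9 TPM, had dropped to below Hmox1 there. These levels are sums over all transcripts of a gene, also those annotated as non-coding. For Sod2 the protein-coding ENSMUST00000007012 held only 14.0, 18.3 and 15.7 TPM in scramble vehicle, and 19.4, 19.0 and 16.1 in H1.0 siRNA vehicle. The shorter ENSMUST00000233897, annotated as non-coding, held 72.4, 80.5 and 81.6 TPM in scramble vehicle. The 10 genes together summed to 1672 ± 68 TPM in scramble vehicle, 1389 ± 82 in scramble TGF-β, 2020 ± 47 in H1.0 siRNA vehicle and 1561 ± 103 in H1.0 siRNA TGF-β.

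**Figure D4:**
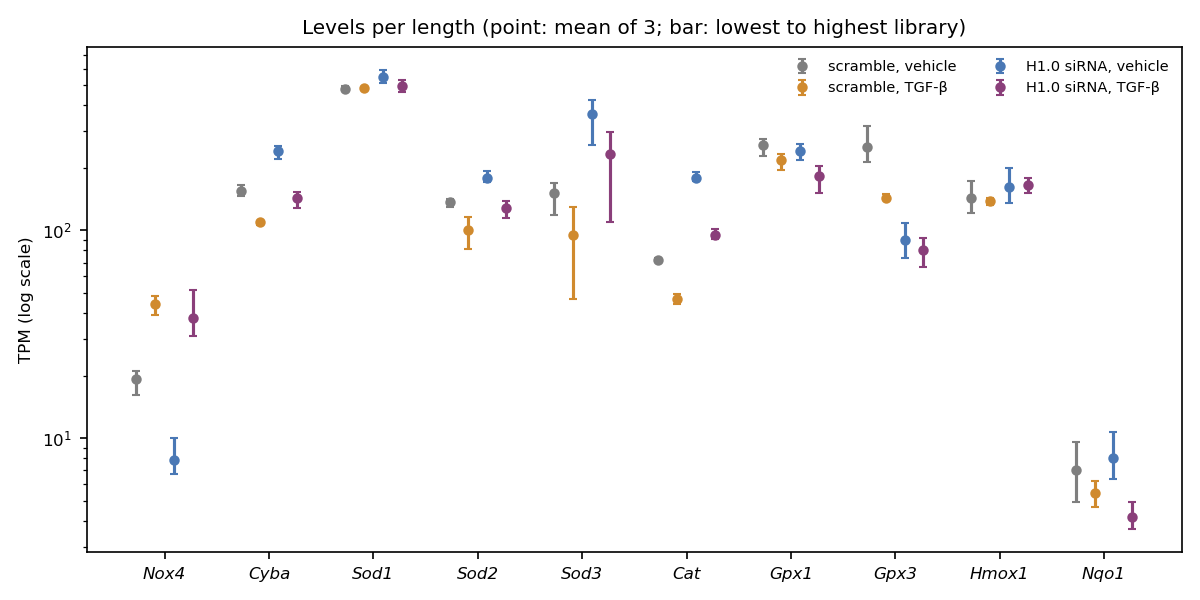
Level of each of the 10 genes in TPM (vertical axis, log scale) in the 4 groups, with the mean of 3 libraries as a point and the lowest and highest library as bar ends. Sod1 is highest in every group, and Nox4 spans the widest fold range between groups, from 7.86 to 44.0 TPM.

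The 5 genes whose log2 normalized counts followed Nox4 most closely over the 12 libraries, among 11452 with a mean count of at least 100, were Gja1, Tnc, Adamts6, Ccn2 and Adamts12. Their Pearson r ran from 0.98 to 0.987. The 12 points share their 4 groups, and the r is a description without a test. Tnc, which encodes the matrix protein tenascin C, averaged 9479 normalized counts in scramble vehicle, 53970 in scramble TGF-β, 2912 in H1.0 siRNA vehicle and 30810 in H1.0 siRNA TGF-β. Ccn2, a matricellular protein long used as a readout of TGF-β signaling, averaged 38620, 85340, 18260 and 77700 in the same order. All 5, like Nox4, were highest in scramble TGF-β and lowest in H1.0 siRNA vehicle, an order that largely follows from how they were picked.

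Another 115 genes of redox metabolism, in 11 lists, were read from the same fit, and 108 of them were tested. With TGF-β, 3 rose and 17 fell in scramble cells, or 18.5%, close to the share of all genes called, though among all called genes 1893 rose and 1431 fell. The counts in H1.0 siRNA cells were 3 and 20, or 21.3%, where 15.7% of all genes were called. DESeq2 called 35 of the listed genes with TGF-β in scramble cells, 9 higher and 26 lower, and 40 in H1.0 siRNA cells, 7 higher and 33 lower. Over all 18028 genes DESeq2 called 4503 and 4226 in these comparisons. With the siRNA the listed genes leaned upward. In vehicle 29 rose and 7 fell, or 33.3%, where 24.7% of all genes were called. In TGF-β 26 rose and 6 fell, or 29.6%, where 24.3% of all genes were called. Among all genes called with the siRNA, 2421 rose and 2024 fell in vehicle, and 2343 rose and 2038 fell in TGF-β. The median log2 fold change of the 108 was -0.12 and -0.16 with TGF-β in scramble and H1.0 siRNA cells, and 0.25 and 0.28 with the siRNA in vehicle and TGF-β, where that of all genes was between -0.01 and 0.04. The interaction was called for 0 of the 108 with edgeR (11 at an unadjusted p under 0.05) and for 1 with DESeq2. Of all 18028 genes, 2149 had an unadjusted p under 0.05 for the interaction with edgeR. Without the libraries numbered 3, the TGF-β counts were 12 up and 22 down in scramble cells and 10 up and 22 down in H1.0 siRNA cells. Leaving out scramble vehicle replicate 1 or 2 brought the count in scramble cells down to 11 or 12 in all, and leaving out replicate 2 or 3 of the scramble TGF-β group to 13 or 12. In these fits the count over all genes also fell, from 3324 to 1871, 1915, 2203 and 1976 in the same order. Genes given below only as members of a count, without a fold change, were named after their values were seen.

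Among the other oxidase genes, 1 of 3 tested catalytic subunits changed with TGF-β in each background. That was 33.3%, where 18.4% and 15.7% of all genes were called in scramble and H1.0 siRNA cells. Cybb, the phagocyte oxidase, fell by 0.73 ± 0.17 on the log2 scale in scramble cells and by 0.87 ± 0.17 in H1.0 siRNA cells (adjusted p = 0.0078 and 0.0033), beside the lower macrophage marker sums given above, whose part was not tested. The first call was lost without any one of 7 libraries, namely scramble vehicle replicates 1 and 2, each scramble TGF-β library, and H1.0 siRNA vehicle replicates 1 and 2 (adjusted p from 0.010 to 0.035). The second was lost without H1.0 siRNA vehicle replicate 1 or 2 or replicate 3 of H1.0 siRNA TGF-β, where the adjusted p was 0.010 to 0.016. The second was also lost in the fit of 2 groups (adjusted p = 0.019). Both calls of Cybb were lost without the libraries numbered 3 (adjusted p = 0.028 and 0.019). Of 9 organizers and activators, 3 rose with the siRNA in both media, or 33.3%, where 24.7% and 24.3% of all genes were called. With TGF-β 1 fell in scramble cells, Noxo1, and 1 rose in H1.0 siRNA cells, Cybc1 (log2 fold change 0.30 ± 0.06, adjusted p = 0.0044). This call of Cybc1 with TGF-β was lost with the length offset (adjusted p = 0.028) and in the fit of 2 groups (adjusted p = 0.013). It was also lost without replicate 1 or 2 of either H1.0 siRNA group (adjusted p from 0.010 to 0.017) and without the libraries numbered 3. Rac1 and Noxo1 are named after their values were seen. Cybc1, a chaperone of the p22phox heterodimer, rose from 574 ± 19 normalized counts in scramble vehicle to 1417 ± 35 in H1.0 siRNA vehicle (log2 fold change 1.30 ± 0.06, adjusted p = 2.6e-07), and by 1.51 ± 0.06 in TGF-β. Rac1, a small GTPase of several oxidases and of the cytoskeleton, rose by 1.29 ± 0.08 in vehicle and 1.44 ± 0.08 in TGF-β (adjusted p = 1.2e-06 and 7.6e-07). Among oxidases of other families 2 of 4, Xdh and Maob, fell with TGF-β in both backgrounds. That was 50%, where 18.4% and 15.7% of all genes were called in scramble and H1.0 siRNA cells. Xdh, xanthine dehydrogenase, fell from 3884 ± 180 to 1251 ± 176 normalized counts in scramble cells (log2 fold change -1.64 ± 0.16, adjusted p = 7.5e-05).

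With TGF-β, 5 of 22 glutathione S-transferases fell, 1 rose and 16 were not called in each background, so that 27.3% were called where 18.4% of all genes were in scramble cells and 15.7% in H1.0 siRNA cells. Gstm1, Gstm4, Gstm5 and Mgst1 fell in both, Mgst3 in scramble cells and Gstm2 in H1.0 siRNA cells. Gstm1 fell from 4656 ± 399 to 855 ± 171 normalized counts in scramble cells (log2 fold change -2.45 ± 0.26, adjusted p = 1.0e-04), while Gsto1 rose by 1.03 ± 0.20 (adjusted p = 0.0031), a call lost without scramble vehicle replicate 1 or 2 or scramble TGF-β replicate 3 (adjusted p from 0.014 to 0.019). The mu-class members resemble each other in sequence, so how reads were divided among them is uncertain. With the siRNA 3 of 10 genes of glutathione synthesis and reduction rose in vehicle, namely Gss, Gclm and Pgd, a share near the 24.7% of all genes called. Gss, glutathione synthetase, rose from 205 ± 34 to 590 ± 100 normalized counts (log2 fold change 1.53 ± 0.15, adjusted p = 2.6e-05). Gpx4, which repairs lipid peroxides, was the 1 of 4 other glutathione peroxidases to change, by -0.42 ± 0.09 with the siRNA in vehicle and -0.58 ± 0.09 in TGF-β (adjusted p = 0.0042 and 5.3e-04). The share of 1 in 4 was near the 24.7% and 24.3% of all genes called. The vehicle call of Gpx4 was lost without scramble vehicle replicate 1 or 3 or H1.0 siRNA vehicle replicate 1 or 2 (adjusted p from 0.015 to 0.019). It was also lost in the fit of 2 groups (adjusted p = 0.023).

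Of 20 peroxiredoxins, thioredoxins and their regulators, 6 rose and 3 fell with the siRNA in each medium. That was 45%, where 24.7% and 24.3% of all genes were called in vehicle and TGF-β. Srxn1, the sulfiredoxin that restores overoxidized peroxiredoxins, rose from 804 ± 173 to 2700 ± 1059 normalized counts in vehicle (log2 fold change 1.75 ± 0.25, adjusted p = 2.3e-04). Sesn3, a sestrin, fell from 4678 ± 614 to 1405 ± 251 (log2 fold change -1.74 ± 0.15, adjusted p = 9.5e-06), and Prdx6 fell by 1.25 ± 0.17 in TGF-β (adjusted p = 1.9e-04). With TGF-β Txnip, an inhibitor of thioredoxin, fell by 1.48 ± 0.31 on the log2 scale in scramble cells (adjusted p = 0.0045), a call lost without any one scramble library except vehicle replicate 3 (adjusted p from 0.013 to 0.023). In iron handling, the exporter Slc40a1 fell with TGF-β from 1160 ± 102.4 to 390 ± 65 normalized counts in scramble cells (log2 fold change -1.57 ± 0.14, adjusted p = 4.5e-05).

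Of NRF2 and its regulators, 0 of 10 were called by edgeR with TGF-β in either background (2 and 2 at an unadjusted p under 0.05). At that unadjusted p stood 7559 of all 18028 genes in scramble cells and 7051 in H1.0 siRNA cells. With the siRNA 3 of the 10 rose in vehicle, Cul3, Mafk and Rbx1, a share near the 24.7% of all genes called, and these with Sqstm1 and Mafg rose in TGF-β, where 24.3% of all genes were called. The call of Mafg was lost with the length offset and without replicate 1 or 2 of scramble TGF-β or replicate 3 of H1.0 siRNA TGF-β. Rbx1, a subunit of the ubiquitin ligase that degrades NRF2, rose by 0.70 ± 0.08 in vehicle (adjusted p = 5.4e-05). Of 14 further NRF2 targets, 1 rose and 4 fell (Ces2g, Ephx1, Cbr1 and Aox1) with TGF-β in scramble cells. That was 35.7%, where 18.4% of all genes were called. With the siRNA in vehicle 6 rose and 1 fell, or 50%, where 24.7% of all genes were called. Aox1, an aldehyde oxidase, was like Cat lowest in scramble TGF-β and highest in H1.0 siRNA vehicle, at 808 ± 13 normalized counts in scramble vehicle, 267 ± 62 in scramble TGF-β, 1908 ± 532 in H1.0 siRNA vehicle and 792 ± 110 in H1.0 siRNA TGF-β. It fell by 1.60 ± 0.21 on the log2 scale with TGF-β in scramble cells and rose by 1.24 ± 0.19 with the siRNA in vehicle (adjusted p = 2.8e-04 and 4.8e-04). Akr1b8, an aldo-keto reductase, rose by 1.15 ± 0.19 with TGF-β in scramble cells (adjusted p = 0.0011), and Ces2g, a carboxylesterase, fell by 0.91 ± 0.16 with the siRNA in vehicle (adjusted p = 0.0012).

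**Figure D5:**
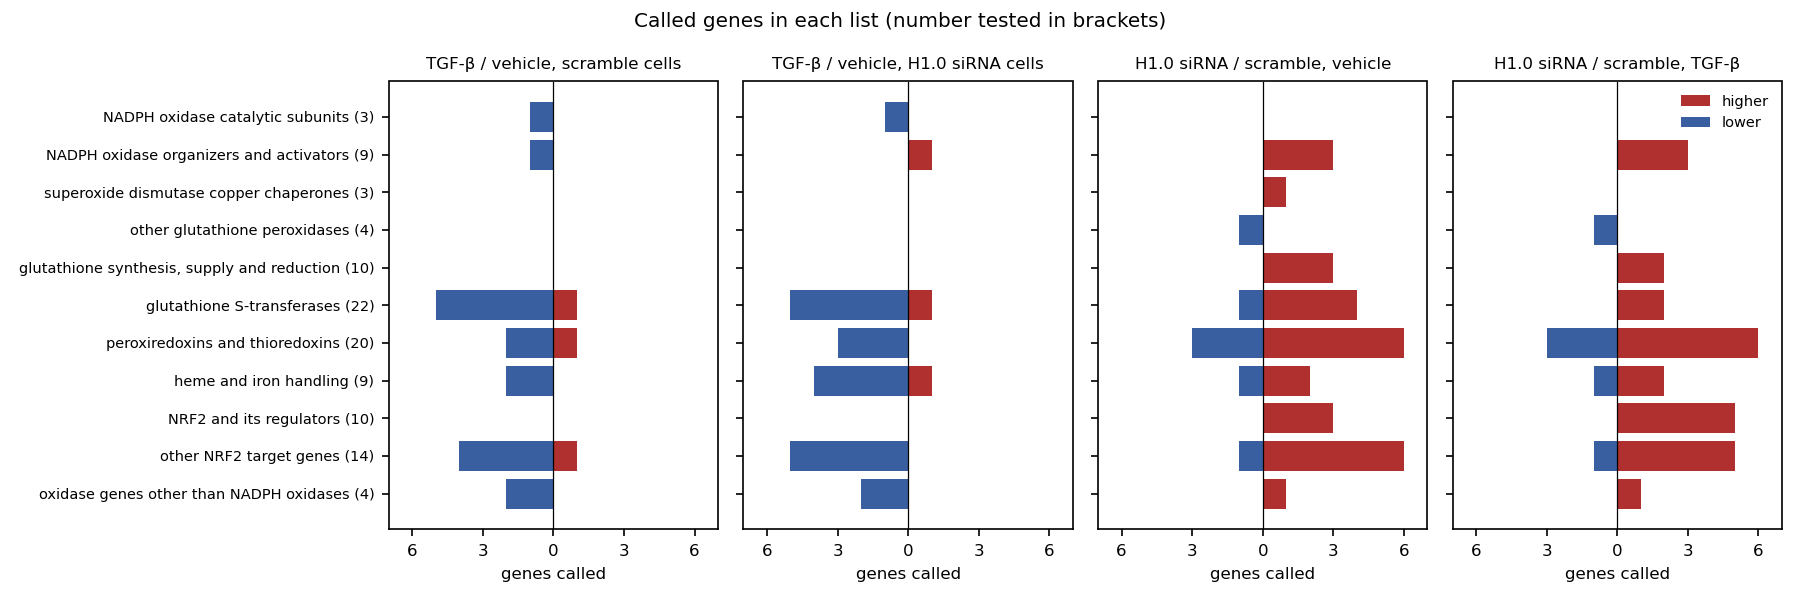
Number of genes called higher (red, to the right) and lower (blue, to the left) on the horizontal axis in each of 11 lists of redox genes, with the number tested in brackets, in the 4 comparisons. Bars point mostly to the left with TGF-β and mostly to the right with H1.0 siRNA. With the siRNA in vehicle 29 listed genes rose and 7 fell, or 33.3%, where 24.7% of all genes were called.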

How the data were processed

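RNA was sequenced in 12 libraries (4 groups of 3). The authors removed ribosomal RNA, sequenced paired ends and quantified transcripts with Salmon. The submitters' processing notes name mm10, Salmon and DESeq2. The deposited values are an estimated count, a TPM and an effective length per transcript, the last used only for the length offset. Transcripts were matched to GENCODE genes on GRCm38 (115973 of 117135), and estimated counts were summed per gene and rounded. Genes reaching a summed count of 10 entered 1 edgeR 4.0.16 quasi-likelihood fit (R 4.3.3, TMM, no covariates), with calls made where the adjusted p was below 0.01, as in the study. The standard error is the log2 fold change over the square root of F. TPM was used only for levels. The 10 genes, the lists and the tests were chosen with earlier results of these data known. Named list genes were the called gene with the widest change per list, comparison and direction, at a mean count of at least 100, and some of them are not reported here. Alternatives were RLE factors, DESeq2 1.42.0, limma-voom (limma 3.58.1), other count filters, a replicate block, a length offset, thinned counts, fits of 2 groups, leaving out each library and, added after the values were seen, leaving out the libraries numbered 3. The fit was tested on simulated data. A chi-square test over genes separated all replicate pairs beyond sampling noise, at 8.95 to 64.8 per degree of freedom. ChIP-seq data were not analysed here.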

Additional observations from a re-analysis of the deposited data

How the results depend on the processing

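Of the fold changes of the 10 genes in the 5 comparisons under the alternatives, 1034 kept their direction and their side of the threshold, 17 gained a call, 17 lost one and 22 changed sign. The 17 losses were all of Gpx3, and the sign changes were all of effects that were not called. With libraries left out in turn, the TGF-β effect on Hmox1 ran from -0.0992 to 0.184 in scramble cells and from -0.00149 to 0.348 in H1.0 siRNA cells, and in the latter that on Sod1 from -0.142 to 0.0272 and that on Gpx3 from -0.195 to 0.145. Likewise the siRNA effect on Nqo1 in vehicle ran from -0.0683 to 0.547, and the interaction from -0.12 to 0.131 for Sod2, from -0.256 to 0.397 for Sod3 and from -0.0666 to 0.336 for Hmox1. With the length offset the Sod2 interaction was -0.0143. Without the libraries numbered 3 it was -0.0521, and the TGF-β effect on Gpx3 in H1.0 siRNA cells was 0.0869.

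Whether same-numbered libraries share an isolation is not given. The correlation of their deviations from group means ran from 0.0802 to 0.593 over 18 pairs, above 0.1 in 17 of them, against -0.559 to 0.289 over 36 pairs of unequal number, and 12 of 12 libraries correlated best with their own number, a hint from the data and not part of the design. With the replicate number as a block, Sod3 joined the calls with TGF-β in scramble cells, for 5 of the 10 genes (adjusted p = 0.0077). In the same fit 5 were called with TGF-β in H1.0 siRNA cells (adding Gpx1, adjusted p = 0.00081, and Nqo1), 6 with the siRNA in vehicle (adding Sod1 and Sod3) and 5 with the siRNA in TGF-β (adding Gpx1, adjusted p = 0.0036, and Sod3). Of the listed redox genes the block called 12 higher and 29 lower with TGF-β in scramble cells, 11 and 36 with TGF-β in H1.0 siRNA cells, 44 and 10 with the siRNA in vehicle, and 39 and 12 with the siRNA in TGF-β. All genes called with the block were 5125 and 4825 with TGF-β in scramble and H1.0 siRNA cells, 6054 with the siRNA in vehicle, and 118 for the interaction.

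DESeq2 called 1 of the 10 genes, and 239 genes in all, for the interaction, against 8 here. For that count limma-voom gave 4, thinning 5, the length offset 1, the fit without the libraries numbered 3 gave 18, and leaving out each library 0 to 12. Fitting only the 2 groups gave 1548 genes for TGF-β in H1.0 siRNA cells. Leaving out each library gave 1871 to 3597 and 1589 to 2884 genes with TGF-β in scramble and H1.0 siRNA cells, and the cause of these shifts was not tested. The named list genes kept their direction throughout, with 1090 values that kept their call and 76 that lost it.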
